A study of Mus musculus with 12 samples.

Results

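The genes described here encode the metalloproteases that cut the extracellular matrix and cell-surface proteins, and the inhibitors that block them: the matrix metalloproteases (Mmp), the membrane-anchored ADAM proteases (Adam), the secreted ADAMTS proteases (Adamts) and the tissue inhibitors of metalloproteases (Timp). They were chosen by gene symbol, with earlier results of these data known, and 79 of the 55421 genes in each deposited table carry such a name. Of these, 29 had a normalized count of 10 or more in at least 3 of 12 RNA-seq libraries and are described by genotype and irradiation. The libraries come from B16F10, a mouse melanoma cell line grown in dishes. CRISPR-Cas9 was used to disrupt Bub1, which encodes a kinase of the mitotic spindle checkpoint. The groups were Bub1KO cells given 8 Gy, vector control (VC) cells given 8 Gy, untreated Bub1KO cells and untreated VC cells, with 3 libraries each, and the study asks how a lack of Bub1 alters the response to radiotherapy. The sources used here do not give the number of Bub1KO clones, the guide, or how long after irradiation RNA was taken. Whether replicate libraries are separate cultures is also not stated, so the p-values cover the spread among the libraries at hand, which may be technical.

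Metalloproteases use a zinc ion to cut peptide bonds, and most are made as inactive precursors that furin, plasmin or another metalloprotease switches on. Membrane-type MMPs work at the cell surface, where Mmp14 activates the gelatinase Mmp2 with Timp2 as the bridge between them. ADAM proteases release the outer parts of growth factors, adhesion molecules and Notch receptors, a step called shedding, while ADAMTS proteases cut proteoglycans such as versican and trim procollagens. In melanoma these enzymes are studied for their part in invasion and in the release of signalling molecules. RNA levels do not show how much enzyme is active.

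Each library had between 19380726 and 33087366 reads in genes. Bub1 RNA was lower in Bub1KO libraries, at 886, 989 and 1120 normalized counts (reads divided by a size factor per library) against 1484, 1461 and 1507 in VC after 8 Gy, and at 1834, 1565 and 1588 against 2752, 3185 and 2859 in VC without treatment. These means are 67.3% and 56.7% of VC, and RNA that remains does not show whether protein was made. Untreated Bub1KO replicate 1 stood apart: its chi-square per gene against the other libraries of its group was 54.0 and 50.3, against 7.86 between those and 5.89 to 19.1 within the other groups. The mean log2 deviation, from the mean of the 12 libraries, of its most GC-rich genes minus that of its most GC-poor genes was -0.773, while replicates 2 and 3 of that group had -0.005 and 0.051. Pigment cell markers were abundant in all libraries, with a summed normalized count of 555500 to 578900 in Bub1KO and 430600 to 445900 in VC after 8 Gy, and 542900 to 552100 in Bub1KO and 386900 to 404300 in VC without treatment. All 7 passed the value filter. Of 8 macrophage and leukocyte markers, 2 passed it, Cd68 and Lyz2, and the summed count was 273 to 287 in Bub1KO and 177 to 202 in VC after 8 Gy, against 31.3 to 32.6 in untreated Bub1KO and 34.8 to 37.3 in untreated VC. Adgre1 and Cd3e, the markers of macrophages and T cells, were at 0 in all 12 libraries, and the pan-leukocyte gene Ptprc averaged at most 0.540 in any group. Of 8 fibroblast markers, 4 passed. Their sum was 2061 to 2422 in Bub1KO and 1956 to 2016 in VC after 8 Gy, against 709 to 873 in untreated Bub1KO and 575 to 646 in untreated VC, and most of it was Postn. With irradiation Postn, Col1a1 and Col1a2 rose and Pdgfra fell in both genotypes. The Pdgfra log2 fold changes were -1.10 in Bub1KO and -1.41 in VC. Without treatment Col1a1 averaged 6.26 in Bub1KO and 6.05 in VC, under the filter value. The rise of Col1a1 is therefore not independent of the filter. Of the other 4, Col3a1 averaged at most 12.4 (in irradiated VC), and Lum, Thy1 and Dcn at most 2.21, 0.303 and 0.344. No neutrophil, endothelial or keratinocyte marker passed. The part of these markers in the results below was not tested.

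The members that passed the value filter were 7 of 23 Mmp genes, 9 of 33 Adam genes, 10 of 19 Adamts genes and 3 of 4 Timp genes. Of the 50 that did not, 19 had no read in any library, 28 had reads but stayed under 10 in every library, and 3 reached 10 in only 1 or 2 libraries (Adam1a and Adam4 in 2, Adam32 in 1). Just inside the filter lay Mmp19, with 3 libraries at 10 or more and a highest value of 18.9, and Mmp23, with 4 libraries and a highest value of 19.6. All 3 Mmp19 libraries at 10 or more were irradiated. Adamts7 reached 10 in 7 libraries, of which only VC replicate 2 was untreated. Several metalloproteases well known from tumours were under the filter: the gelatinase Mmp9 had 40 reads over all 12 libraries, the collagenase Mmp13 had 7, the stromelysin Mmp3 had 28 and the inhibitor Timp1 had 18. Mmp7 and Mmp8 had none.

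Per kilobase of exon, the most abundant member in every group was Timp2, an inhibitor of MMPs, at 2016 normalized counts per kb in Bub1KO and 2308 in VC after 8 Gy, and at 1535 in Bub1KO and 2031 in VC without treatment. The sheddase Adam9 had 1123, 1566, 1297 and 1601 per kb in the same order of groups, and Mmp14, the membrane-type collagenase, had 958, 793, 1026 and 1109. The proteoglycanase Adamts1 ranged from 539 per kb in untreated Bub1KO to 1392 in irradiated VC, and the sheddase Adam10 from 808 to 886. Adam17 lay between 316 and 386 per kb. The other 23 members were at or below 300.4 per kb in every group. Adamts7, an enzyme that cuts the cartilage matrix protein COMP, was the lowest in both untreated groups, at 0.862 per kb in Bub1KO and 1.22 in VC. Exons of Adam8, Adam15, Adam17, Adam19, Adamts4, Adamts7, Mmp11, Mmp19, Timp3 and Timp4 share bases with a gene on the other strand, and with the strand setting of the counting not stated, their values may hold reads of that gene.

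**Figure D1:**
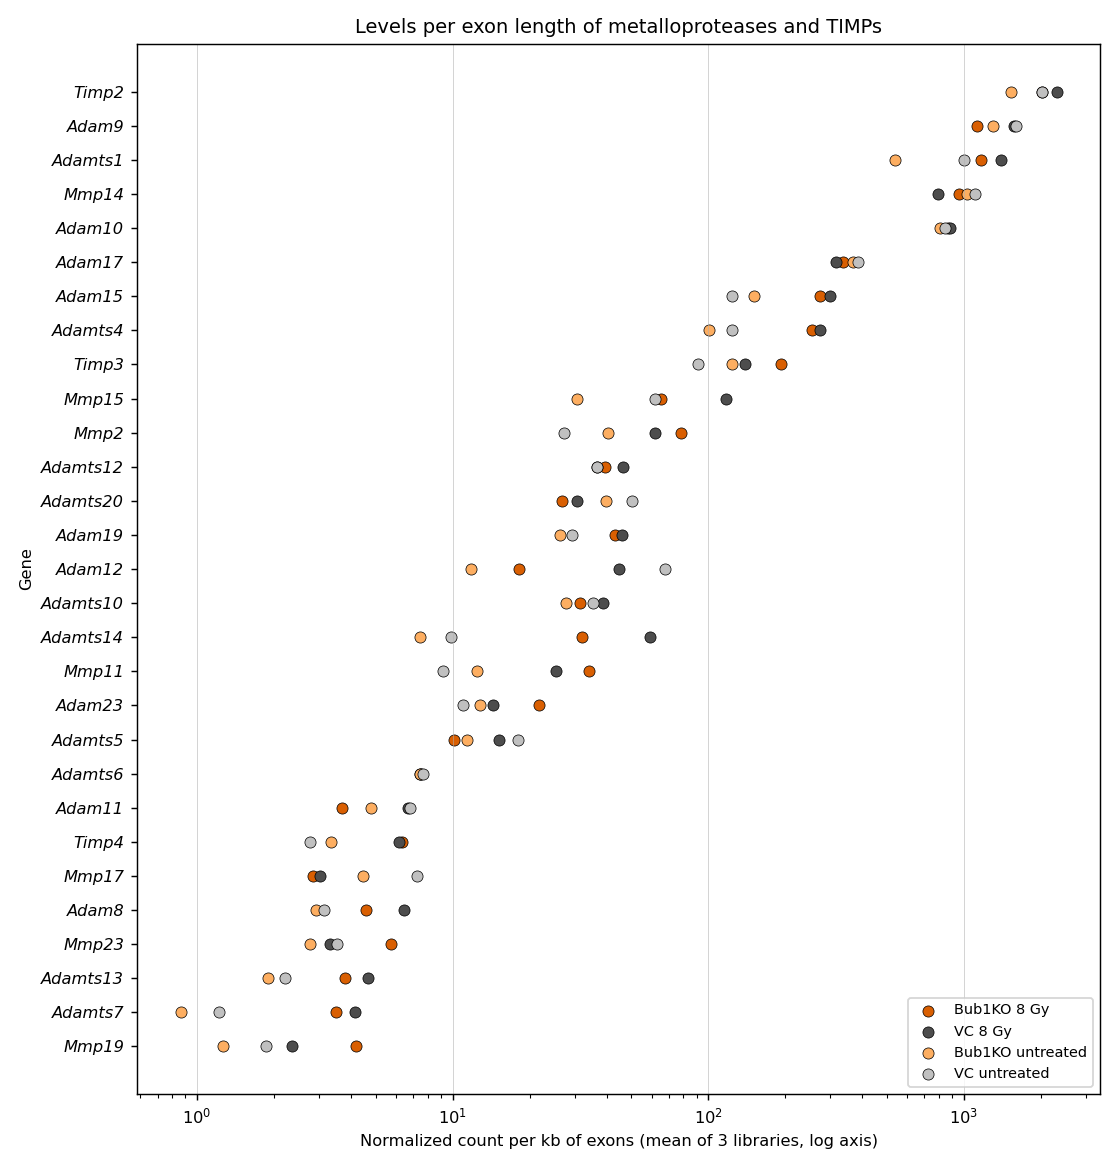
Mean normalized count per kb of exons (log axis) of the 29 members in each of the 4 groups, 3 libraries each, ordered by their mean. Timp2, Adam9, Mmp14, Adamts1 and Adam10 lie at the top, and Adamts7, Mmp19 and Adamts13 at the bottom.

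Each comparison was tested with limma on log2(normalized count + 1) over all 14721 genes past the value filter, and a gene is said to have risen, fallen or differed where its adjusted p was under 0.05. After 8 Gy, 13 of the 29 members differed between Bub1KO and VC, 4 higher and 9 lower in Bub1KO. Over all tested genes 30.7% differed, 14.3% higher and 16.4% lower. With all 12 libraries in the fit, 8 members differed after 8 Gy, 3 higher and 5 lower, against 14.3% of all genes in that fit (7.37% higher and 6.93% lower). Without treatment 5 members differed, all lower in Bub1KO, against 4.01% of all genes (2.31% higher and 1.71% lower). At an unadjusted p under 0.05, 11 members and 19.1% of all genes differed there by limma, and of the members Timp3 and Mmp2 were higher. On recovered reads edgeR gave 5 lower members, with 0 higher, against 4.36% of all genes, and DESeq2 gave 5 lower and 1 higher, against 5.79%. Leaving out untreated Bub1KO replicate 1 gave 9 members, 2 higher and 7 lower, against 18.6% of all genes (10.2% higher and 8.4% lower). Leaving out any other of those 6 libraries gave 2 or 3 members, against 1.17% to 2.04% of all genes. The median log2 fold change of the members was -0.125 after 8 Gy and -0.158 without treatment, against -0.0055 and -0.0084 over all tested genes. All 5 members lower in untreated Bub1KO were also lower in irradiated Bub1KO: Adam12, Adamts1, Adamts5, Mmp15 and Timp2. After 8 Gy the shares of members that differed in each direction lay near those of all genes for higher values and above them for lower values. No test was made of these counts. For the 16 members that differed in neither comparison, log2 fold changes ran from -0.46 (Adam8) to 0.71 (Mmp19) after 8 Gy and from -0.67 (Mmp17) to 0.53 (Mmp11) without treatment.

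By count, more members changed with irradiation than with genotype. In Bub1KO cells 16 of 29 members changed after 8 Gy, 15 up and 1 down, against 49.4% of all genes (25.4% up and 23.9% down). In VC cells 21 members changed, 16 up and 5 down, against 53.4% of all genes (27.6% up and 25.8% down). The rises of Mmp19 (Bub1KO) and Adamts7 (both genotypes) are counted here, though both genes passed the value filter through irradiated libraries. The members' median log2 fold change was 0.64 in Bub1KO and 0.34 in VC, against 0.028 and 0.0174 over all genes. Scaling each library to its total reads gave 16 up and 1 down in Bub1KO and 16 up and 5 down in VC among the members, while the counts over all genes went to 4453 up and 2784 down in Bub1KO (3746 and 3523 as deposited) and 4848 up and 2917 down in VC (4065 and 3796 as deposited). Bulk RNA does not tell apart a change in the RNA of each cell and a change in the share of cells that hold it. For 2 members, both higher, the genotype difference itself differed between irradiated and untreated cells, against 0.55% of all genes (0.136% higher and 0.414% lower). They were Adam12 and Adamts1. For the other 27 members it did not pass, also where a change passed in only 1 genotype. That count was 4 without untreated Bub1KO replicate 1, against 9.83% of all genes, and 1 without any other library, against 0.224% to 0.584%. All 5 comparisons draw on the same 12 libraries, so they are not independent of each other. Adam10, Adamts6 and Mmp23 differed in none of the 5 comparisons.

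**Figure D2:**
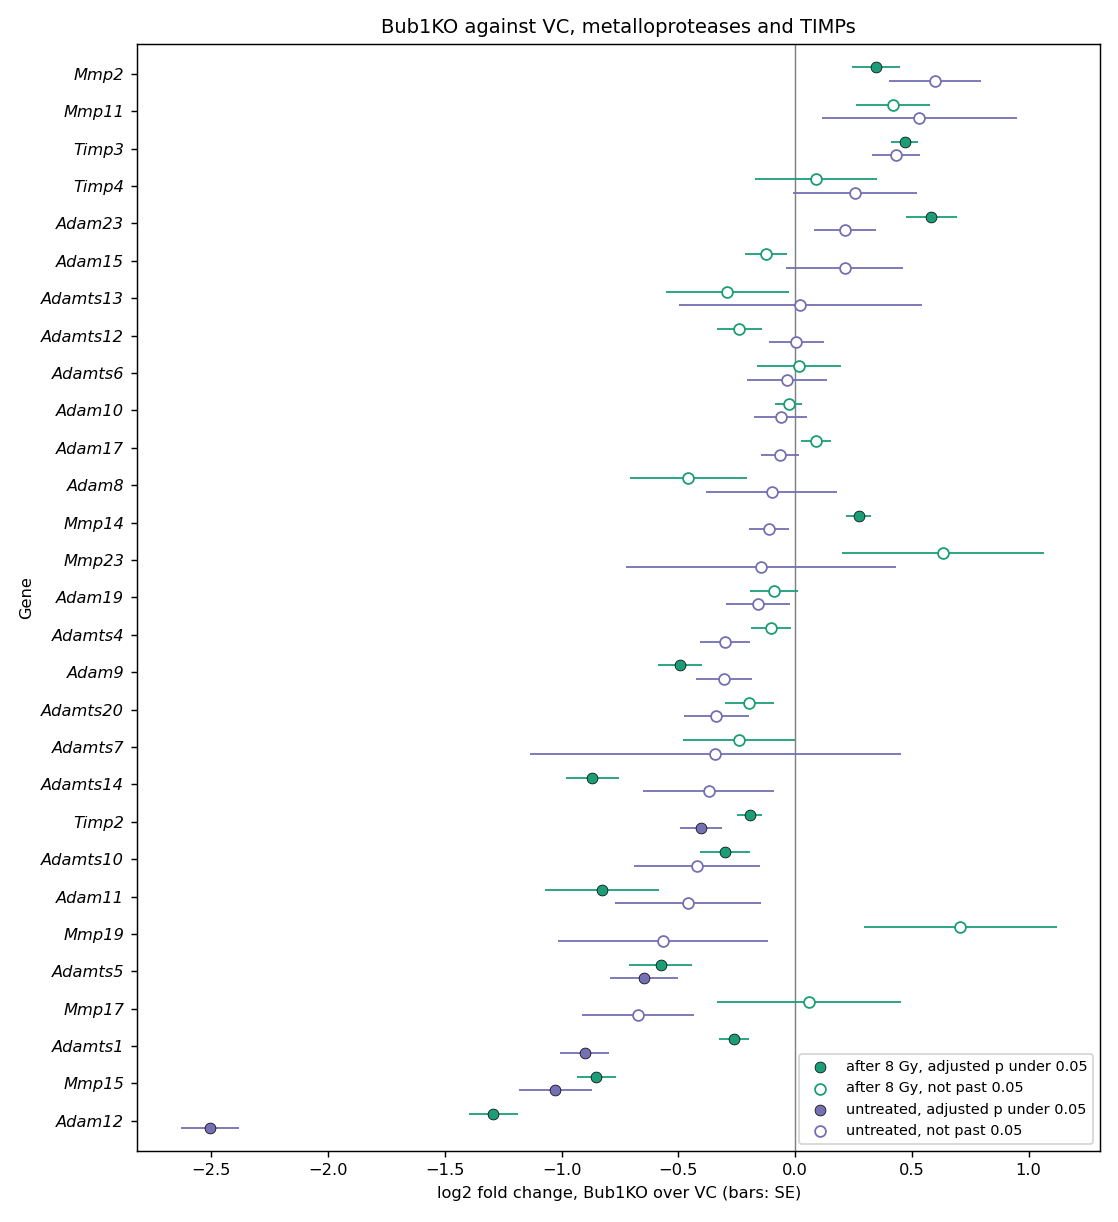
Log2 fold change of Bub1KO over VC (points) with its standard error (bars) for each of the 29 members, after 8 Gy and without treatment, 3 libraries per group; filled points have an adjusted p under 0.05. Adam12 and Mmp15 lie lowest without treatment, and 4 members (Adam23, Timp3, Mmp2 and Mmp14) have filled points above 0, all after 8 Gy.

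The promoters shown are those of members lower in Bub1KO under both treatments and of Adamts14, which had the largest rise after 8 Gy in VC. They are given where the RefSeq table of GRCm38.p6 promoters holds them. Whether these genes share regulation was not tested. Each window runs 250 bases before to 50 after the annotated start, 5′ to 3′ on the gene's strand. Capitals mark matches, on either strand and counted where they overlap, to the letters GGGCGG (the GC box bound by Sp factors), CCGGAA (an ETS core) and TATAAA (the TATA box).
Adamts1 (chr16:85803064-85803363, minus strand): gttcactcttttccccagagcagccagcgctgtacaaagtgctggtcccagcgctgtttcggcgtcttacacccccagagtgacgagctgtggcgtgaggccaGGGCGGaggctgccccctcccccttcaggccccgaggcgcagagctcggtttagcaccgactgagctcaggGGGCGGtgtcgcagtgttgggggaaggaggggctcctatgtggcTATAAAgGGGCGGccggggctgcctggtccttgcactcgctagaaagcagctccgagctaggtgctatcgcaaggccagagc
Mmp15 (chr8:95352046-95352345, plus strand): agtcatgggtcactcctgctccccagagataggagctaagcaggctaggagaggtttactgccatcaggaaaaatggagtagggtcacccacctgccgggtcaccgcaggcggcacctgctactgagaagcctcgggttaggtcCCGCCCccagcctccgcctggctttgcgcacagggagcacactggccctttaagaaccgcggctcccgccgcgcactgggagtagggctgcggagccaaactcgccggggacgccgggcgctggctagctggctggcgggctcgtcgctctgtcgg
Timp2 (chr11:118355362-118355661, minus strand): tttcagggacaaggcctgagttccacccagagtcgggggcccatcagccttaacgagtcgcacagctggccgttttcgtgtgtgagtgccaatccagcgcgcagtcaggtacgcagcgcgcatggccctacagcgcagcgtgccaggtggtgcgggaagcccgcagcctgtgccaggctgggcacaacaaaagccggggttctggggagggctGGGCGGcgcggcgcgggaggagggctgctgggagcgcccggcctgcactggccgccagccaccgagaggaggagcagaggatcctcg
Adamts14 (chr10:61273370-61273669, minus strand): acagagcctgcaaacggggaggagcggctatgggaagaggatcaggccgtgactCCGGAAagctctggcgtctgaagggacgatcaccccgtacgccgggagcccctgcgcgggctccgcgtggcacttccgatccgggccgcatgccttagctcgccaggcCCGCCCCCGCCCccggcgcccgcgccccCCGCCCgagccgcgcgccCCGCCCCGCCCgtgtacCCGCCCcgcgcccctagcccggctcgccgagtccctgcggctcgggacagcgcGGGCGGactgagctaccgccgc
In the Adamts1 window the TATA box began at position -32 from the start and a GC box at -25, and 3 GC boxes were found in all. The Mmp15 and Timp2 windows held 1 GC box each, at -106 and -37. The Timp2 window lies wholly within the gene as GENCODE M21 places it, downstream of the start given there. Windows of Adamts20, Mmp11 and Adam19 also lie within their GENCODE genes, so the starts of the 2 annotations differ. The Adamts14 window, 76.7% G and C, held 7 GC boxes and an ETS core at -196. Of the 29 members 18 had an entry, with 21 windows. GGGCGG stood in 15 of the 21 windows and in 35.7% of all 32851 promoters of the table, CCGGAA in 3 (Adam15, Adam17 and Adamts14) and in 14.9%, and TATAAA in 1 (Adamts1) and in 13.6%. The AP-1 letters TGANTCA stood in 1 window, of Adam19, and in 7.81% of all promoters. CATGTG, the M-box bound by Mitf in pigment cells, stood in none of the 21 and in 14.2% of all. These matches describe letters in a short window and not sites of binding.

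Among the ADAM proteases, Adam12 had the largest genotype difference of all members. Adam12 (chr7:133883199-134232146, minus strand, GRCm38) encodes a membrane-anchored protease that cuts insulin-like growth factor binding proteins and growth factor precursors. After 8 Gy it had 185, 174 and 219.5 normalized counts in Bub1KO, against 437, 499 and 479 in VC. Without treatment it had 122, 137 and 117 in Bub1KO, against 639.9, 773 and 736 in VC. Every Bub1KO library was below every VC library of either treatment. The means were 193 ± 23.8 in Bub1KO and 472 ± 31.6 in VC after 8 Gy, and 125 ± 10.2 in Bub1KO and 716 ± 68.5 in VC without treatment (SD, n = 3 each). The log2 fold change of Bub1KO over VC was -1.29 (SE 0.105, limma adjusted p = 2.94e-06) after 8 Gy, a level 2.45-fold lower, and -2.51 (SE 0.125, limma adjusted p = 2.42e-05) without treatment, a level 5.68-fold lower. Irradiation moved Adam12 in opposite directions: it rose in Bub1KO by 0.61 (SE 0.115, limma adjusted p = 0.000548) and changed in VC by -0.60 (SE 0.115, limma adjusted p = 0.000631), a fall. The difference between these responses was 1.21 (SE 0.162, limma adjusted p = 0.00255) on the log2 scale. All of these Adam12 calls were kept in every alternative tried.

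Adam15 encodes a disintegrin-bearing protease of cell contacts, and it rose in both genotypes after 8 Gy. It had 1673, 1784 and 1589 normalized counts in irradiated Bub1KO, against 539.7, 1113 and 1130 in untreated Bub1KO, a log2 fold change of 0.93 (SE 0.215, limma adjusted p = 0.00259). In VC it had 1830, 2126 and 1581 after 8 Gy, against 801, 689 and 791 without treatment, a change of 1.27 (SE 0.215, limma adjusted p = 0.000238). The low value of the untreated Bub1KO group is the library that stood apart. The untreated Bub1KO over VC difference was 0.21 (limma adjusted p = 0.712) with that library and 0.56 (limma adjusted p = 0.00237) without it, and the difference between the irradiation responses was -0.34 (limma adjusted p = 0.716) with it and -0.69 (limma adjusted p = 0.00533) without it. Adam15 shares 1263 exon bases with 4731419I09Rik on the other strand.

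Adam9 encodes a widely expressed sheddase and was the most abundant ADAM by exon length. After 8 Gy it had 4039, 4298 and 5523 normalized counts in Bub1KO, against 6232, 6918 and 6181 in VC, and the groups did not overlap. The log2 fold change was -0.49 (SE 0.0952, limma adjusted p = 0.00196) after 8 Gy. Without treatment Adam9 had 5901, 5469 and 4645 in Bub1KO, against 6411, 7472 and 5886 in VC, with 1 Bub1KO library above the lowest VC library. That difference was -0.30 (limma adjusted p = 0.211), and -0.38 (limma adjusted p = 0.0273) without Bub1KO replicate 1. Its irradiation change was -0.21 (limma adjusted p = 0.166) in Bub1KO, where it passed without irradiated replicate 3 (-0.35, limma adjusted p = 0.0262), and -0.03 (limma adjusted p = 0.866) in VC.

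Adam23 and Adam11 encode ADAMs without protease activity that bind LGI proteins at neuronal contacts, and they differed in opposite directions. After 8 Gy, Adam23 had 399, 442 and 328 normalized counts in Bub1KO, against 263, 257 and 253 in VC. All irradiated Bub1KO values were above all VC values, with a log2 fold change of 0.58 (SE 0.108, limma adjusted p = 0.00145). In untreated cells the counts were 204, 227 and 254 in Bub1KO, against 185, 192 and 212 in VC, with overlapping groups and a change of 0.21 (limma adjusted p = 0.429). Irradiation raised Adam23 by 0.76 (limma adjusted p = 0.000148) in Bub1KO and by 0.39 (limma adjusted p = 0.0139) in VC, and the VC call was lost without untreated VC replicate 1 (adjusted p = 0.0525 by limma). Adam11 had 18.6, 26.3 and 17.9 in irradiated Bub1KO, against 32.0, 47.2 and 34.3 in irradiated VC, a change of -0.83 (SE 0.244, limma adjusted p = 0.021). The call for Adam11 was lost without irradiated Bub1KO replicate 1 or 3 or VC replicate 2, with limma adjusted p of 0.062, 0.0575 and 0.101. It was also lost with all 12 libraries in the fit (limma adjusted p = 0.0731), with GC trends removed (0.0535) and with DESeq2 (0.0562), and the authors' deposited table gives an adjusted p of 0.0843. Without treatment Adam11 had 20.3, 34.5 and 26.3 in Bub1KO, against 55.5, 33.5 and 26.5 in VC, and its groups overlapped. Its change with irradiation in Bub1KO was -0.35 (limma adjusted p = 0.343), and -0.64 (limma adjusted p = 0.0389) with GC trends removed.

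The main sheddases Adam17 and Adam10 moved little. Adam17, which releases tumour necrosis factor and EGF receptor ligands, had 2290, 2320 and 2634 normalized counts in irradiated Bub1KO, against 2627, 2698 and 2584 in untreated Bub1KO. VC libraries held 2218, 2307 and 2265 after 8 Gy, against 2726, 2904 and 2646 without treatment. The fall in VC was small, with a log2 fold change of -0.28 (SE 0.0697, limma adjusted p = 0.00364), and with the GC trend of each library removed it was -0.13 (limma adjusted p = 0.127). The Bub1KO change of Adam17 was -0.13 (limma adjusted p = 0.14), and it passed without irradiated replicate 3 (-0.19, limma adjusted p = 0.0372). Adam10, which makes the first cut of Notch receptors, ranged from 3537 to 4697 over all 12 libraries. With GC trends removed, Adam10 changes of 0.29 (limma adjusted p = 0.00137) in Bub1KO and 0.26 (limma adjusted p = 0.00241) in VC after 8 Gy passed the threshold, against 0.11 and 0.07 as deposited.

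Adam19, a neuregulin sheddase, rose in both genotypes. It had 279, 298 and 342 normalized counts in irradiated Bub1KO, against 197, 192 and 171 in untreated Bub1KO. In VC it had 316, 358 and 302 after 8 Gy, against 193, 196 and 237 without treatment. No irradiated library overlapped an untreated one, and the log2 fold changes were 0.71 (limma adjusted p = 0.000238) in Bub1KO and 0.64 (limma adjusted p = 0.00049) in VC. Adam8, best known from leukocytes and scarce here, had 20.6, 25.3 and 17.9 in irradiated Bub1KO, against 13.2, 11.5 and 15.8 in untreated Bub1KO, a change of 0.61 (limma adjusted p = 0.0583), which passed with libraries scaled to their totals (0.69, limma adjusted p = 0.0348). VC libraries held 37.7, 28.1 and 23.6 after 8 Gy, against 15.8, 11.6 and 16.4 without treatment, a rise of 0.97 (limma adjusted p = 0.00527). The Adam8 responses were not distinguished (difference -0.36, limma adjusted p = 0.75). Cd68 and Lyz2, the macrophage markers above the filter, also rose after 8 Gy in both genotypes. Their log2 fold changes were 3.41 and 2.54 in Bub1KO, and 2.17 and 3.60 in VC. Without treatment Lyz2 averaged 9.97 in Bub1KO and 4.78 in VC, under the filter value. The rise of Lyz2 is therefore not independent of the filter. The counts of Ptprc and Itgam were at or near 0.

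Of the matrix metalloproteases, Mmp15 was lower in Bub1KO under both treatments. Mmp15 (chr8:95352268-95375080, plus strand, GRCm38) encodes a membrane-type protease of the same class as Mmp14. After 8 Gy it had 359, 368 and 328 normalized counts in Bub1KO, against 624, 679.9 and 603 in VC. Untreated libraries held 130.1, 188 and 178 in Bub1KO, against 332, 319.9 and 350.3 in VC. Irradiated Bub1KO libraries lay in the range of untreated VC libraries or just beside it. The log2 fold change of Bub1KO over VC was -0.85 (SE 0.0833, limma adjusted p = 1.32e-05) after 8 Gy and -1.03 (SE 0.157, limma adjusted p = 0.00843) without treatment. The untreated call was lost without VC replicate 1, 2 or 3, with limma adjusted p of 0.0538, 0.0524 and 0.0528. Irradiation raised Mmp15 by 1.10 (limma adjusted p = 8.42e-06) in Bub1KO and by 0.93 (limma adjusted p = 3.69e-05) in VC, and these rises were not distinguished (difference 0.17, limma adjusted p = 0.753).

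Mmp14 and its substrate Mmp2 took different courses. Mmp14 had 5857, 5869 and 5412 normalized counts in irradiated Bub1KO, against 4794, 4670 and 4718 in irradiated VC. Without treatment it had 5911, 6091 and 6335 in Bub1KO, against 6356, 6321 and 7161 in VC. After 8 Gy all Bub1KO values were above all VC values, with a log2 fold change of 0.27 (SE 0.0545, limma adjusted p = 0.00239), while the untreated difference was -0.11 (limma adjusted p = 0.537). In VC Mmp14 fell after 8 Gy, with a change of -0.48 (SE 0.0674, limma adjusted p = 4.89e-05), and in Bub1KO its change was -0.10 (limma adjusted p = 0.247). With GC trends removed it fell in both, with changes of -0.23 (limma adjusted p = 0.00419) in Bub1KO and -0.58 (limma adjusted p = 9.65e-07) in VC. As deposited, the difference between the Mmp14 responses was 0.38 (limma adjusted p = 0.108); it was 0.36 (limma adjusted p = 0.0164) without untreated Bub1KO replicate 1, 0.35 (limma adjusted p = 0.0369) with GC trends removed and 0.39 (DESeq2 adjusted p = 0.0148) with DESeq2 on the recovered reads. Mmp2, a gelatinase, had 265, 278 and 251 in irradiated Bub1KO, against 206, 191 and 229.5 in irradiated VC, a difference of 0.35 (SE 0.103, limma adjusted p = 0.0221). That call was lost without Bub1KO replicate 1 or 2 or VC replicate 1 or 2 (limma adjusted p 0.0565, 0.088, 0.0684 and 0.0812). It was also lost with all 12 libraries in the fit (limma adjusted p = 0.163), and the authors' deposited table gives an adjusted p of 0.0908 for it.

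Without treatment Mmp2 had 129, 149.7 and 133 normalized counts in Bub1KO, against 92.8, 68.4 and 115 in VC. These groups did not overlap, and the log2 fold change was 0.60 (SE 0.199, limma adjusted p = 0.14), with 0.60 (limma adjusted p = 0.0257) when all 12 libraries entered the fit. In the authors' deposited table, whose fold change runs VC over Bub1KO, the same difference was -0.58 (SE 0.174, adjusted p = 0.0107, all as given there). Irradiation raised Mmp2 in Bub1KO by 0.95 (limma adjusted p = 0.000248) and in VC by 1.20 (limma adjusted p = 3.17e-05), and every irradiated library was above every untreated one.

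The remaining MMPs were scarce. Mmp11, a furin-activated protease first known from tumour stroma, had 92.9, 108 and 83.0 normalized counts in irradiated Bub1KO, against 23.4, 33.7 and 46.3 in untreated Bub1KO. In VC it had 67.5, 80.8 and 63.3 after 8 Gy, against 20.7, 12.9 and 42.8 without treatment. The rises were 1.48 (limma adjusted p = 0.00264) in Bub1KO and 1.59 (limma adjusted p = 0.00145) in VC. After 8 Gy its Bub1KO over VC difference was 0.42 (limma adjusted p = 0.059), and it passed without irradiated Bub1KO replicate 3 or VC replicate 2 or with GC trends removed (limma adjusted p 0.0405, 0.0406 and 0.0271). Mmp17, a membrane-type protease held by a lipid anchor, had 29.1, 8.17 and 22.5 in irradiated VC, against 56.4, 36.1 and 51.7 in untreated VC, a change of -1.37 (limma adjusted p = 0.00685). In Bub1KO it had 22.7, 20.2 and 13.7 after 8 Gy, against 30.5, 33.7 and 24.2 without treatment, a change of -0.64 (limma adjusted p = 0.175). The Mmp17 responses were not distinguished (difference 0.735, limma adjusted p = 0.624). Mmp19, which cuts basement membrane proteins, had 7.22, 18.2 and 18.9 in irradiated Bub1KO, against 7.12, 4.11 and 2.11 in untreated Bub1KO, a rise of 1.54 (limma adjusted p = 0.0117). The call was lost without untreated replicate 3 or irradiated replicate 2 or 3 (limma adjusted p 0.0517, 0.0534 and 0.0519). Mmp19 passed the value filter only through irradiated libraries, so this rise is not independent of the filter. In VC its change was 0.26 (limma adjusted p = 0.644), and the responses were not distinguished (difference 1.27, limma adjusted p = 0.451). Mmp23, a membrane protease released by furin-like enzymes, ranged from 3.05 to 19.6 over the 12 libraries.

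**Figure D3:**
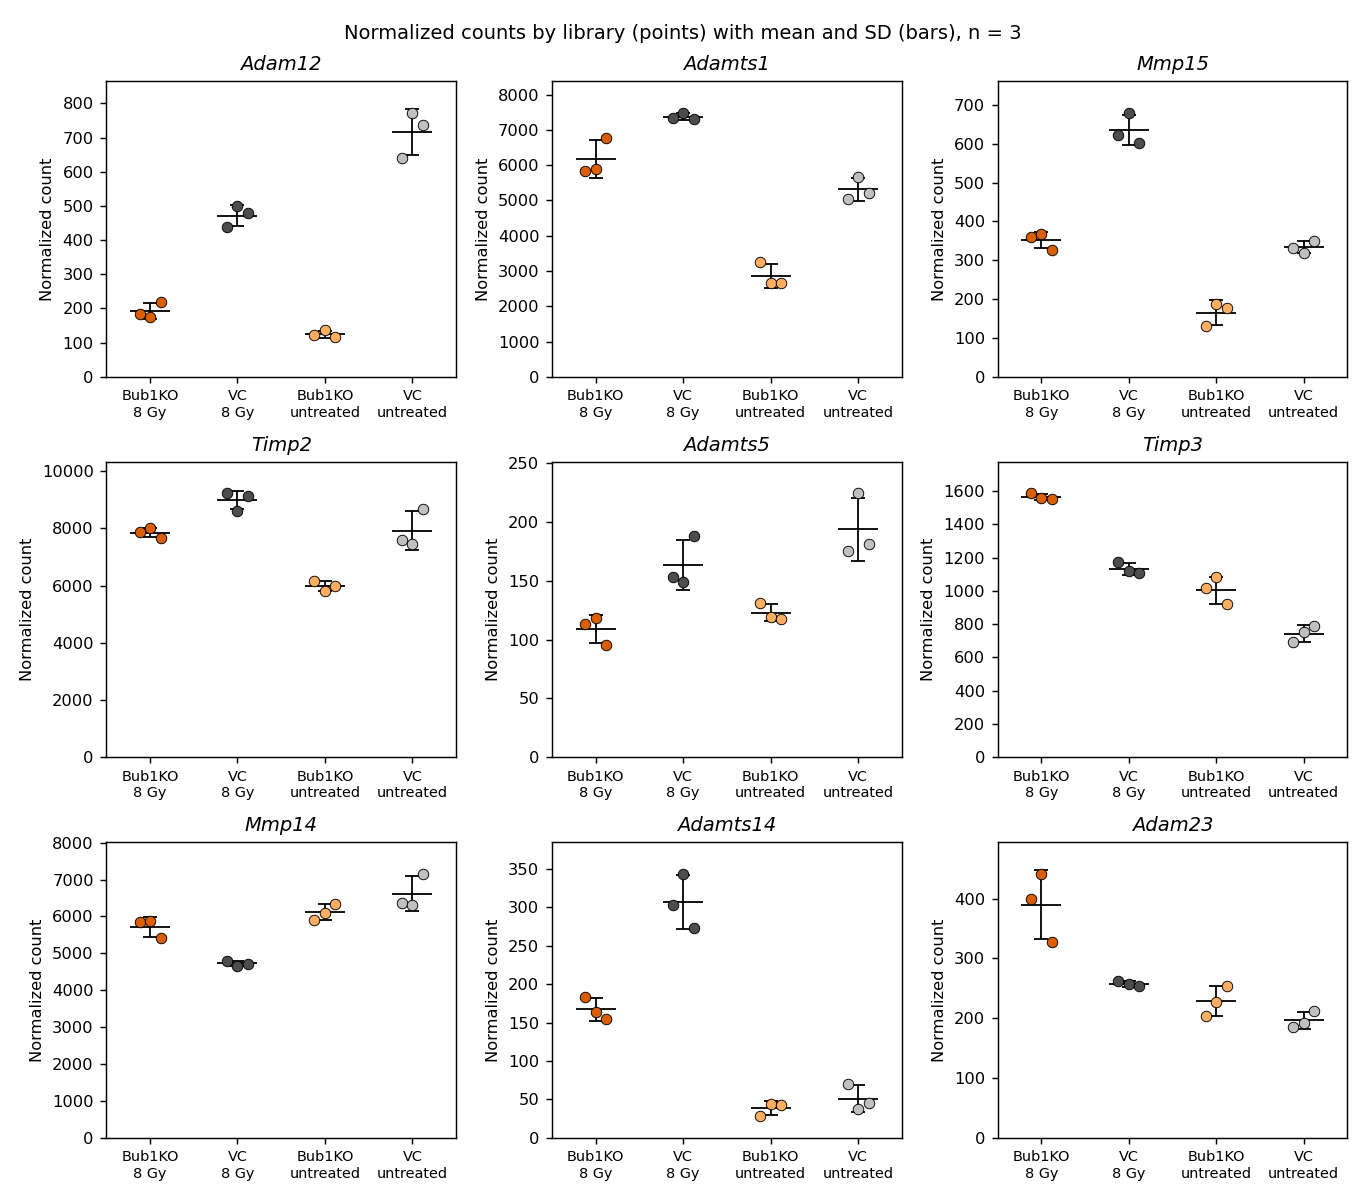
Normalized counts of 9 members in each library (points) with the group mean and SD (bars), 3 libraries per group, each axis from 0. Adam12 is lower in Bub1KO than in VC under both treatments and differs in the direction of its change with 8 Gy, Adamts1, Mmp15 and Adamts14 are highest in irradiated VC, and Timp3 is highest in irradiated Bub1KO.

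Among the ADAMTS proteases, the proteoglycanases Adamts1 and Adamts5, neighbours on chromosome 16, were lower in Bub1KO under both treatments. Adamts1 (chr16:85793827-85803113, minus strand, GRCm38), which cuts versican and aggrecan, had 5849, 5890 and 6783 normalized counts in irradiated Bub1KO, against 7332, 7489 and 7319 in irradiated VC. In untreated cells the counts were 3256, 2655 and 2658 in Bub1KO, against 5055, 5676 and 5215 in VC. No Bub1KO library reached a VC library of the same treatment. The log2 fold change of Bub1KO over VC was -0.26 (SE 0.0628, limma adjusted p = 0.00723) after 8 Gy and -0.90 (SE 0.105, limma adjusted p = 0.00224) without treatment, and with all 12 libraries in the fit the irradiated difference did not pass (limma adjusted p = 0.0645). Irradiation raised Adamts1 2.17-fold in Bub1KO (1.11, SE 0.0884 on the log2 scale) and 1.39-fold in VC (0.47, SE 0.0884), both past the threshold. The difference between these rises was 0.64 (SE 0.125, limma adjusted p = 0.0386). That call was lost in 13 of 21 alternatives: with no value filter (limma adjusted p = 0.0597), with a replicate block (0.0998) and in 11 that leave out a library. Leaving out untreated Bub1KO replicate 1 kept it, and leaving out any of the other 11 libraries lost it, with limma adjusted p from 0.0683 (without untreated VC replicate 1) to 0.109 (without irradiated VC replicate 1).

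Adamts5 (chr16:85856173-85901828, minus strand, GRCm38), an aggrecanase, had 114, 118 and 95.6 normalized counts in irradiated Bub1KO, against 154, 149 and 188 in irradiated VC. Untreated libraries held 131, 119 and 118 in Bub1KO, against 175, 224 and 181 in VC. All Bub1KO libraries were below all VC libraries of either treatment. Bub1KO over VC gave -0.58 (SE 0.135, limma adjusted p = 0.00617) after 8 Gy and -0.65 (SE 0.146, limma adjusted p = 0.0435) without treatment. The untreated call was kept without Bub1KO replicate 1 and lost without any other of the 6 libraries, with limma adjusted p of 0.135, 0.14, 0.122, 0.176 and 0.103 (Bub1KO replicates 2 and 3, then VC replicates 1 to 3). It was also lost with no value filter (0.0564) and with a replicate block (0.104), both by limma. Irradiation gave -0.17 (limma adjusted p = 0.321) in Bub1KO and -0.24 (limma adjusted p = 0.156) in VC. Adamts4, the third proteoglycanase, behaved differently: its genotype differences were -0.10 (limma adjusted p = 0.389) after 8 Gy and -0.30 (limma adjusted p = 0.171) without treatment, and it rose with irradiation. It had 1254, 1152 and 1265 in irradiated Bub1KO, against 468, 458 and 526 in untreated Bub1KO, and 1291, 1502 and 1168 in irradiated VC, against 610, 553 and 622 in untreated VC. The rise was 2.53-fold in Bub1KO (1.34, limma adjusted p = 1.7e-07) and 2.21-fold in VC (1.14, limma adjusted p = 6.71e-07).

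Adamts14, a procollagen N-proteinase that trims fibrillar collagens, had the largest log2 rise of all members in irradiated VC. It had 184, 164 and 154 normalized counts in irradiated Bub1KO, against 303, 344 and 274 in irradiated VC. Without treatment it had 28.5, 44.4 and 43.2 in Bub1KO, against 70.5, 37.4 and 45.4 in VC. The untreated groups overlapped and the irradiated groups did not. Irradiation raised Adamts14 4.31-fold in Bub1KO (log2 2.11, SE 0.22, limma adjusted p = 3.76e-06) and 6.09-fold in VC (log2 2.61, SE 0.22, limma adjusted p = 5.56e-07). After 8 Gy it was 1.83-fold lower in Bub1KO (-0.87, SE 0.113, limma adjusted p = 0.000126), while the untreated difference was -0.37 (limma adjusted p = 0.528) and the difference between the differences -0.50 (limma adjusted p = 0.555). The genotype difference of Adamts14 passed the threshold in irradiated cells and not in untreated ones, but the test of the change between them did not pass.

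Adamts20, which cuts versican and is mutated in the belted coat-colour mouse, fell in both genotypes. It had 227, 232 and 263 normalized counts in irradiated Bub1KO, against 408, 353 and 316 in untreated Bub1KO, a log2 change of -0.57 (limma adjusted p = 0.00184). VC libraries held 247, 301 and 279 after 8 Gy, against 488, 482 and 389 without treatment, a change of -0.71 (limma adjusted p = 0.000325). Without untreated Bub1KO replicate 1 its untreated Bub1KO over VC difference was -0.43 (limma adjusted p = 0.0321), against -0.34 (limma adjusted p = 0.229) with it. Adamts10, a partner of fibrillin microfibrils, had 246, 277 and 256 in irradiated Bub1KO, against 315, 365 and 283 in irradiated VC. The groups did not overlap and gave a log2 fold change of -0.30 (SE 0.107, limma adjusted p = 0.0488), a call lost in 10 of 16 alternatives. Leaving out, 1 at a time, Bub1KO replicates 1, 2 and 3 and VC replicates 1 and 2, the limma adjusted p was 0.14, 0.0614, 0.0882, 0.102 and 0.199. It was 0.0501 with a pseudocount of 5, 0.0561 with no value filter, 0.401 with all 12 libraries in the fit and 0.187 with GC trends removed by limma, and 0.0606 with DESeq2. The authors' deposited table gives an adjusted p of 0.35 for Adamts10 after 8 Gy. Without treatment Adamts10 had 131, 288 and 269.6 in Bub1KO, against 285, 328 and 262 in VC, the lowest value being from the library that stood apart.

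Of the other ADAMTS members, Adamts7 rose with irradiation in both genotypes, and the rises of Adamts12 and Adamts13 passed in VC and not in Bub1KO. The difference between the responses did not pass for Adamts12 (-0.24, limma adjusted p = 0.555) or Adamts13 (-0.31, limma adjusted p = 0.891). Adamts12, which cuts the cartilage matrix protein COMP, had 476, 545 and 494 normalized counts in irradiated VC, against 361, 446 and 391 in untreated VC, a log2 rise of 0.34 (limma adjusted p = 0.0149). Without untreated VC replicate 1 or irradiated VC replicate 2 the limma adjusted p was 0.0711 and 0.0685. In Bub1KO it had 377, 451 and 460.1 after 8 Gy, against 388, 422 and 388 without treatment (0.10, limma adjusted p = 0.462). After 8 Gy Adamts12 gave a Bub1KO over VC difference of -0.24 (limma adjusted p = 0.0732), of -0.29 (limma adjusted p = 0.0468) without Bub1KO replicate 3 and of -0.27 (limma adjusted p = 0.0361) with GC trends removed. Adamts7 had 18.6, 26.3 and 21.01 in irradiated Bub1KO, against 1.02, 5.76 and 9.48 in untreated Bub1KO, a rise of 2.12 (limma adjusted p = 0.0133). In VC Adamts7 had 22.04, 28.1 and 27.9 after 8 Gy, against 7.46, 14.2 and 1.26 without treatment, a rise of 2.02 (limma adjusted p = 0.016) that was lost without untreated VC replicate 3 (limma adjusted p = 0.0809). Adamts7 passed the value filter through irradiated libraries, so these rises are not independent of it. Adamts13, which cuts von Willebrand factor, had 21.3, 28.1 and 19.3 in irradiated VC, against 3.31, 11.6 and 17.6 in untreated VC, a rise of 1.23 (limma adjusted p = 0.027). The call was lost without untreated VC replicate 1 or irradiated VC replicate 1 or 2 (limma adjusted p 0.119, 0.0552 and 0.0929), with no value filter (0.0588) and with GC trends removed (0.103). In Bub1KO Adamts13 had 15.5, 17.2 and 23.1 after 8 Gy, against 9.15, 11.5 and 7.37 without treatment (0.92, limma adjusted p = 0.0926), a change that passed with the 6 Bub1KO libraries alone in the fit (limma adjusted p = 0.0341). Adamts6, a relative of Adamts10, ranged from 48.3 to 69.7 over the 12 libraries.

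The inhibitors Timp2 and Timp3 differed by genotype in opposite directions. Timp2 (chr11:118301069-118355740, minus strand, GRCm38), which blocks MMPs and bridges Mmp14 and Mmp2, had 7881, 8003 and 7681 normalized counts in irradiated Bub1KO, against 9231, 8618 and 9133 in irradiated VC. In untreated cells the counts were 6148, 5817 and 5974 in Bub1KO, against 7595, 7449 and 8693 in VC. The genotypes did not overlap under either treatment. The log2 fold change of Bub1KO over VC was -0.20 (SE 0.053, limma adjusted p = 0.0141) after 8 Gy and -0.40 (SE 0.0899, limma adjusted p = 0.0425) without treatment. The irradiated call was lost without VC replicate 1 or 3 and with all 12 libraries in the fit (limma adjusted p 0.0755, 0.051 and 0.0761). The untreated call was kept without Bub1KO replicate 1 and lost without Bub1KO replicates 2 and 3 and VC replicates 1 to 3 (0.144, 0.134, 0.159, 0.118 and 0.131 by limma). It was also lost with no value filter (0.0608 by limma) and with a replicate block (0.0993). Irradiation raised Timp2 by 0.39 (limma adjusted p = 0.000344) in Bub1KO and by 0.19 (limma adjusted p = 0.0342) in VC, where the call was lost without untreated replicate 1 or 2 or irradiated replicate 1 or 3 (0.118, 0.133, 0.111 and 0.0933), with no value filter (0.0853) and with GC trends removed (0.159).

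Timp3, which binds the matrix and inhibits Adam17 and the aggrecanases, had 1588, 1559 and 1555 normalized counts in irradiated Bub1KO, against 1173, 1118 and 1107 in irradiated VC. Untreated libraries held 1015, 1082 and 920.4 in Bub1KO, against 690.4, 755 and 788 in VC. Bub1KO values were above VC values under both treatments. The log2 fold change was 0.47 (SE 0.0596, limma adjusted p = 0.000102) after 8 Gy and 0.43 (SE 0.104, limma adjusted p = 0.0535) without treatment. The untreated difference was just short of the threshold, and it was 0.42 (limma adjusted p = 0.0132) without Bub1KO replicate 1, 0.43 (limma adjusted p = 0.0204) with GC trends removed, 0.43 (DESeq2 adjusted p = 0.0229) with DESeq2 and 0.43 (limma adjusted p = 0.00249) with all 12 libraries in the fit. In the authors' deposited table, as VC over Bub1KO, it was -0.44 (SE 0.0885, adjusted p = 2.43e-05, all as given there). Irradiation raised Timp3 by 0.64 (limma adjusted p = 1.47e-05) in Bub1KO and by 0.61 (limma adjusted p = 2.41e-05) in VC, responses that were not distinguished (0.04, limma adjusted p = 0.938). Timp3 shares 1733 exon bases with Syn3 on the other strand.

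Timp4, a scarce inhibitor, had 35.1, 33.4 and 43.1 normalized counts in irradiated Bub1KO, against 16.3, 20.6 and 22.1 in untreated Bub1KO, a log2 rise of 0.89 (limma adjusted p = 0.0145). The call was lost without irradiated Bub1KO replicate 3 (limma adjusted p = 0.0565). In VC it had 48.4, 38.1 and 22.5 after 8 Gy, against 13.3, 19.4 and 16.4 without treatment, a rise of 1.06 (limma adjusted p = 0.0048). All 3 tested inhibitors thus rose after 8 Gy in both genotypes, against 25.4% of all genes in Bub1KO and 27.6% in VC. The Timp2 rise in VC was lost in 6 of 16 alternatives. No test was made of this count.

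**Figure D4:**
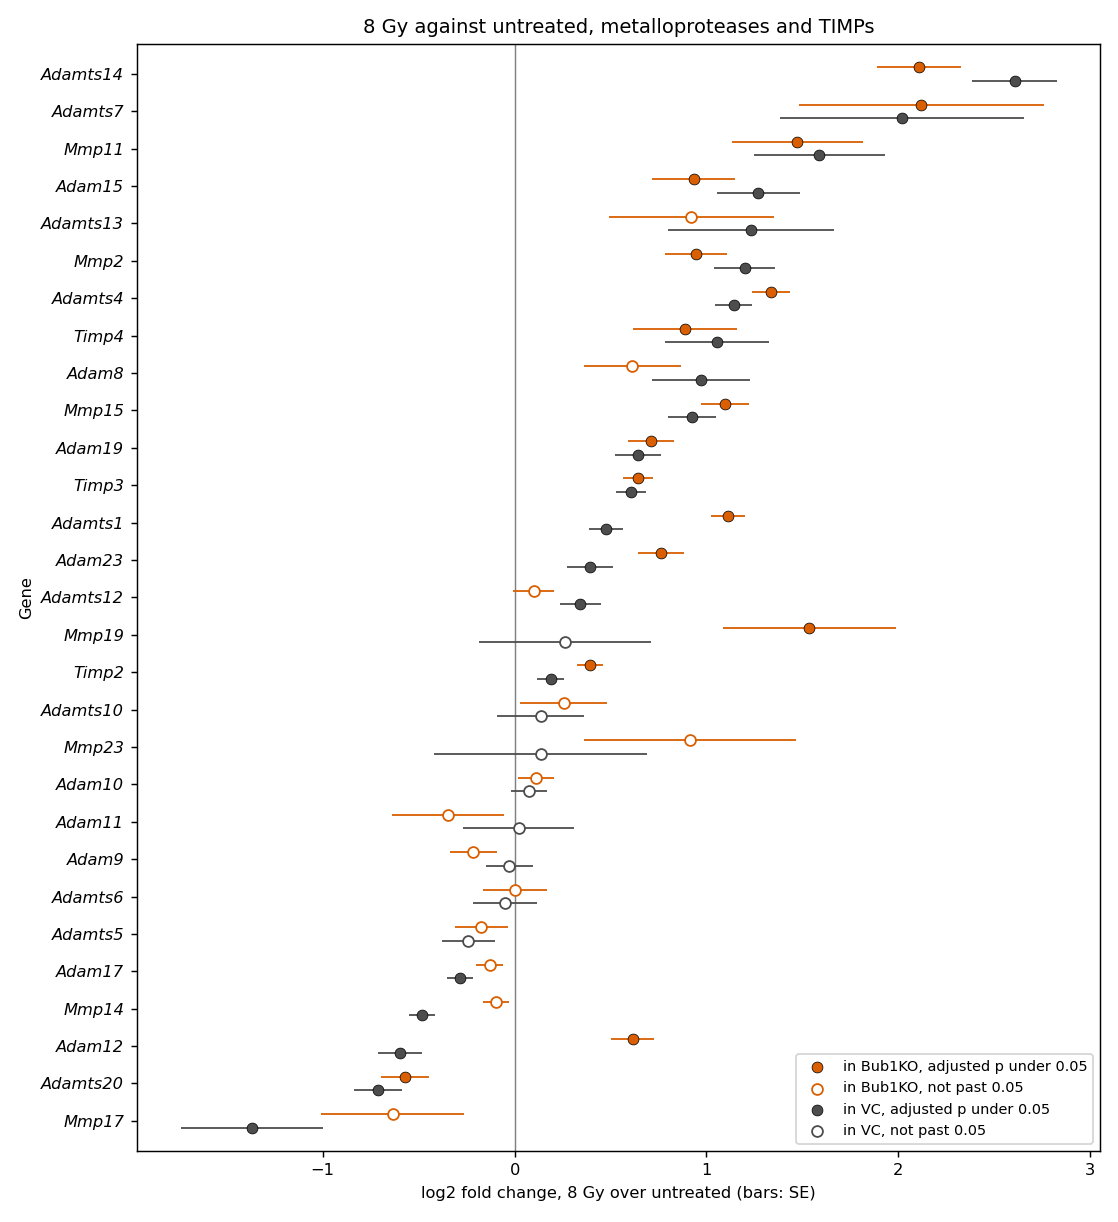
Log2 fold change of 8 Gy over untreated cells (points) with its standard error (bars) for each of the 29 members in Bub1KO and in VC, 3 libraries per group; filled points have an adjusted p under 0.05. Adamts14 and Adamts7 lie farthest above 0, and Adam12 is the only member with filled points on opposite sides of 0.

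Genes that act with the members were taken as lists, and no test was made of their counts. Over all tested genes, 30.7% differed between genotypes after 8 Gy (14.3% higher, 16.4% lower) and 4.01% without treatment (2.31% higher, 1.71% lower). With irradiation 49.4% changed in Bub1KO (25.4% up, 23.9% down) and 53.4% in VC (27.6% up, 25.8% down). In that order, the medians over all genes were -0.0055, -0.0084, 0.028 and 0.0174 log2. The difference of differences passed for 0.55% of all genes. Of 9 tested activating proteases and members of the plasminogen system, 1 was higher and 5 were lower in Bub1KO after 8 Gy, with a median log2 fold change of -0.33. Without treatment the median was 0.04 and limma called 0 of the 9, with 3 at an unadjusted p under 0.05, 0 by edgeR and 0 by DESeq2. Plaur, the urokinase receptor, was at -0.79 (SE 0.132, limma adjusted p = 0.000724), and the furin-like protease Pcsk5 at 0.97 (SE 0.227, limma adjusted p = 0.00634). After 8 Gy 4 rose in Bub1KO and 5 in VC, with medians of 0.38 and 0.92, and the others did not pass. Plau (urokinase) rose by 2.73 log2 in Bub1KO and 2.66 in VC, and Plat (tissue plasminogen activator) by 1.37 and 2.43. Plau averaged 7.43 in Bub1KO and 6.19 in VC without treatment, under the filter value of 10. In this list and those that follow, Pcsk6, Astl, Notch1, F11r, Fosb and Egr1 also averaged under 10 in both untreated groups. Their changes with irradiation, and the list counts and medians that hold them, are not independent of the filter. Of 14 partners and inhibitors outside the TIMPs, 10 rose and 1 fell in Bub1KO, and 11 rose and 1 fell in VC, with medians of 0.573 and 0.615. Papln, an ADAMTS-like inhibitor, rose by 2.85 in Bub1KO and 3.25 in VC, and Tspan14, a tetraspanin that carries Adam10, was at -0.65 and -0.83. Between genotypes 4 were higher and 4 lower in Bub1KO after 8 Gy. Among them Bsg, an inducer of MMPs, was at 0.45, Rhbdf1, which guides Adam17 to the surface, at -0.67 and the tetraspanin Tspan10 at 0.40. Without treatment 1 was lower, Tspan15, another Adam10 tetraspanin (-0.75, limma adjusted p = 0.0256).

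Of 9 related metalloproteases and ADAMTS-like proteins, 2 were higher and 2 lower in Bub1KO after 8 Gy, against 30.7% of all genes. Without treatment 2 were higher and 1 lower, against 4.01% of all genes. The medians were -0.155 after 8 Gy and 0.028 without treatment. Ece1, endothelin converting enzyme, was at -1.31 (SE 0.12, limma adjusted p = 7.17e-06) after 8 Gy and -1.72 (SE 0.158, limma adjusted p = 0.000677) without treatment, and the fibrillin-binding Adamtsl4 at 0.33 (limma adjusted p = 0.0184) and 0.86 (limma adjusted p = 0.0461). Bmp1, the procollagen C-proteinase, was at -0.40 (limma adjusted p = 0.000925) after 8 Gy, and Adamtsl2, another ADAMTS-like protein, at 1.27 (limma adjusted p = 0.00912) without treatment. With irradiation 6 of the 9 rose in Bub1KO and 7 in VC, with medians of 1.05 and 1.32, and the others did not pass. Of 27 tested transmembrane proteins that ADAMs shed, 5 were higher and 9 lower in Bub1KO after 8 Gy, and 1 was higher and 3 lower without treatment, with medians of 0.023 and -0.169. The adhesion molecule Mcam was at -0.62 after 8 Gy and -0.93 without treatment, and the Notch ligand Jag1 at -0.80 and -0.87. Ncam1, a neural adhesion molecule, was at 0.56 (limma adjusted p = 2.8e-05) after 8 Gy, and the chemokine Cx3cl1 at -1.70 (limma adjusted p = 0.0293) without treatment. With irradiation 17 rose and 3 fell in Bub1KO, and 10 rose and 3 fell in VC, with medians of 0.454 and 0.276. Over all genes 49.4% changed in Bub1KO and 53.4% in VC. Mcam rose by 1.23 and 0.92 and the adhesion molecule L1cam by 0.75 and 0.69 in the same order.

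Of 16 tested matrix substrates, 10 were lower in Bub1KO after 8 Gy and 5 without treatment, and the others did not pass. The median log2 fold changes were -0.44 and -0.25. Over all genes 16.4% were lower after 8 Gy and 1.71% without treatment. Fn1, fibronectin, was at -1.60 (SE 0.104, limma adjusted p = 4.24e-07) after 8 Gy and -1.07 (SE 0.114, limma adjusted p = 0.00149) without treatment. Thbs1, thrombospondin, was at -0.81 and -0.84, Sparc, a collagen-binding protein, at -0.43 after 8 Gy and the proteoglycan Bcan at -0.89 without treatment. With irradiation 8 rose and 2 fell in each genotype, with medians of 0.502 in Bub1KO and 0.663 in VC. Sparc rose by 1.62 in Bub1KO and 1.51 in VC, Lamb1, a laminin chain, by 1.16 and 1.11, and Vwf, the substrate of Adamts13, by 3.54 and 3.86. Of 14 AP-1, ETS and RUNX transcription factors, families that bind many metalloprotease promoters, 8 were lower in Bub1KO after 8 Gy and 2 without treatment, and the others did not pass, with medians of -0.472 and -0.384. Lower under both treatments were the ETS factors Etv5, at -1.05 (SE 0.0808, limma adjusted p = 1.96e-06) after 8 Gy and -2.51 (SE 0.21, limma adjusted p = 0.000485) without treatment, and Etv4, at -1.63 and -2.38, and after 8 Gy Fosl2, an AP-1 subunit, was at -0.47. With irradiation 10 rose and 1 fell in Bub1KO, and 10 rose and 2 fell in VC, with medians of 1.13 and 0.681. Fosb and Egr1 are among the 14 and averaged under 10 without treatment, so these counts and medians are not independent of the value filter. Jun rose by 0.92 in Bub1KO and 1.20 in VC. Of these 14, Etv5 was the only one whose genotype difference differed between treatments (1.46, SE 0.235, limma adjusted p = 0.012), with normalized counts of 358 ± 21.4 in Bub1KO and 743 ± 41.1 in VC after 8 Gy, and 76.6 ± 25.0 in Bub1KO and 429 ± 26.0 in VC without treatment (SD, n = 3 each).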

How the data were processed

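RNA-seq values of 12 B16F10 libraries (ribosomal RNA-depleted, stranded total RNA kit, per the labels' protocols) were used. Per the submitters' processing notes, Trim Galore, cutadapt, STAR, SAMtools and HTSeq were used with GRCm38.p6 (mm10); the sources used here give no versions, annotation release or strand setting. Each deposited sample column holds a signal: read counts that the authors divided by a library-wide size factor. Both tables list the same mean for every gene over 12 libraries, so 1 normalization holds for both. Beside these stand the authors' log2 fold change (VC over Bub1KO), its standard error, a test score and deposited p-values. Whole reads were recovered for 100.0% of values above 0 (tolerance 0.01 read), with 19380726 to 33087366 reads per library; their number limits the precision of scarce genes.

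Since the values are normalized and not raw counts, the test was limma-trend (limma 3.58.1, R 4.3.3) on log2(value + 1), which understates the change of scarce genes, over the 14721 genes with 10 or more in 3 of 12 libraries, with Benjamini-Hochberg adjustment and a threshold of 0.05. Genotypes were compared on their own 6 libraries; irradiation and the difference of differences on all 12. Every member past the filter is named; from each list at most 3 genes per comparison, by smallest adjusted p (1 gene that this rule picks is not reported here); the promoters, the Cd68, Lyz2, Ptprc and Itgam values and which alternatives stand beside a member were chosen after values were seen. Members and lists were chosen with earlier results of these data known. edgeR 4.0.16 and DESeq2 1.42.0 on recovered reads were alternatives. Gene positions and exon lengths are from GENCODE M21 (GRCm38); 97.9% of tested genes had them. The test was also run on simulated counts with known changes, the same spread setting for every gene and no library that stood apart. That run does not cover the spread of untreated Bub1KO replicate 1.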

Additional observations from a re-analysis of the deposited data

Results flagged for a closer look

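For 2 members the Bub1KO over VC difference after 8 Gy was itself different from the difference without treatment. For Adam12 the genotype difference was -1.29 on the log2 scale after 8 Gy and -2.51 without treatment, and the difference between them, fitted on all 12 libraries, was 1.213 (limma adjusted p = 0.00255). All 3 irradiated Bub1KO libraries lay above all 3 untreated Bub1KO libraries, while all 3 irradiated VC libraries lay below all 3 untreated VC libraries. For Adamts1 the genotype difference was -0.26 after 8 Gy and -0.90 without treatment, and the difference between them was 0.64 (limma adjusted p = 0.0386). The Adam12 call held in all 21 alternatives, while the Adamts1 call was lost in 13 of 21, with no value filter, with a replicate block and without any 1 library other than untreated Bub1KO replicate 1. Adamts1 was higher after 8 Gy than without treatment in every library of both genotypes.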

How the results depend on the processing

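No value of a member past the threshold changed direction, and 40 of 57 calls over the 5 comparisons held in every alternative. With no value filter 3 members differed between untreated genotypes and 1 in the difference of differences. With all 12 libraries in the fit, 8 members and 2105 of all genes differed between irradiated genotypes, and 1769 of all genes between untreated ones. Leaving out 1 library at a time gave 2 to 9 members and 172 to 2736 of all genes between untreated genotypes, and 1 to 4 members and 33 to 1447 of all genes for the difference of differences. The highest of each came without untreated Bub1KO replicate 1. Removing each library's GC trend, an alternative chosen after seeing the data, gave 1594 of all genes between untreated genotypes and 340 for the difference of differences, where DESeq2 gave 283. On recovered reads edgeR called 4515 of all genes between irradiated and 642 between untreated genotypes, 7339 with irradiation in Bub1KO, 7990 in VC, and 81 for the difference of differences. As the GC gap differs between groups, removing it can also take away part of a change tied to GC content. The cause of these shifts was not tested.

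No shared deviation of same-numbered libraries was seen: the correlation of their deviations was -0.193 to 0.055, against -0.148 to 0.152 for unlike numbers. With 3 libraries per group, these values cannot show whether same-numbered libraries were prepared together. With a replicate block 3 members and 312 of all genes differed between untreated genotypes, and 1 member and 47 of all genes in the difference of differences. Members with few reads (Mmp19, Mmp23, Adamts7 and Adamts13) are limited by depth.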
